A study of Mus musculus with 16 samples.

Results

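The 6 arrays of sh-SIRT1 cells treated with retinoic acid (RA) were compared with the 4 arrays of sh-Control cells treated in the same way. These 10 arrays were taken by their titles from the 16 of the series. All were of E14 mouse embryonic stem cells (mESC) in which a lentivirus vector stably expressed a short hairpin RNA, directed against Sirt1 in the sh-SIRT1 line and of control type in the sh-Control line. Both lines were grown in medium with serum and leukemia inhibitory factor (LIF) and received 20 nM RA for 2 days. The remaining 3 sh-Control and 3 sh-SIRT1 arrays, of cells given the ethanol vehicle, served as a reference level. Only one hairpin against Sirt1 was labelled and each line was made by stable transduction, so that the effect of the hairpin and the history of the line cannot be told apart.

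Sirt1 encodes a nuclear NAD-dependent protein deacetylase whose known substrates include histones, p53 and other transcription regulators. RA enters the nucleus with the help of the carrier protein encoded by Crabp2 and binds RA receptors, which sit as dimers with retinoid X receptors on RA response elements and switch from repression to activation when the ligand is bound. In embryonic stem cells RA lowers the pluripotency network and turns on Hox genes, retinoid-metabolising enzymes and early lineage genes, while LIF works against the exit from pluripotency.

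Levels are log2 processed intensities from which the 75th percentile of the array was subtracted, so that 0 is the level of a fairly bright probe, and differences are given as sh-SIRT1 RA minus sh-Control RA in log2 units ± SE. The adjusted p-values of differences are those of limma with Benjamini-Hochberg adjustment over 17650 genes. The 10 arrays had a 75th percentile of the intensity between 824 and 1150, and the share of their probes well above background was 63.0 to 68.0%. The design text speaks of 3 pairs of cells with duplicates, but which arrays are duplicates is not given, so the p-values measure the spread between arrays and this spread may in part be technical. The arrays of a line were not equally far from each other. sh-Control RA arrays 3 and 4 differed with an SD over genes of 0.21, whereas the other pairs of sh-Control RA arrays differed with SDs of 0.64 to 0.74. Among the sh-SIRT1 RA arrays, 1 and 2 lay close together, and so did 3 to 6 (0.27 to 0.36 within these sets and 0.53 to 0.62 between them). The Y-linked RNA helicase gene Ddx3y was at 0.23 on sh-Control RA array 1 but at -6.91, -8.01 and -8.12 on sh-Control RA arrays 2 to 4, and it was between 0.41 and 0.94 on the sh-SIRT1 RA arrays. Over 5 Y-linked genes tested the mean was -4.98, -5.49 and -5.37 on sh-Control RA arrays 2 to 4 and -2.25 on array 1. It was between -2.59 and -2.18 on the sh-SIRT1 RA arrays and between -2.75 and -1.80 on the vehicle arrays of both lines. Arrays 2 to 4 of the sh-Control RA group thus stood apart from all other arrays, also from the vehicle arrays of their own line. The comparison is therefore also given against each sh-Control RA array alone.

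The knockdown was present on every array. Sirt1 was at 3.48, 3.28, 3.36 and 3.34 on sh-Control RA arrays 1 to 4, and at 0.92 on the lowest, 1.12 at the median and 1.59 on the highest of the sh-SIRT1 RA arrays. All sh-SIRT1 RA arrays thus lay below all sh-Control RA arrays. The difference was -2.18 ± 0.12 (adjusted p = 2.41e-07), a level 4.53-fold lower, and it ranged from -2.29 to -2.10 against the single sh-Control RA arrays. Within the 3 slides that held both RA groups it was -2.22, -2.39 and -2.20. In vehicle the difference was -1.81 (adjusted p = 3.91e-05). The 60-base probe lies at chr10:62855795-62855854 on build mm7, and the other probe kept for the gene gave -2.62.

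Of the 17650 genes, 3626 (20.5%) differed between the lines under RA at an adjusted p under 0.05, 1530 of them (8.67%) higher and 2096 (11.9%) lower in sh-SIRT1 cells. The median difference of all genes was -0.04. In bulk samples such as these, fewer cells of a type and less RNA per cell cannot be told apart. The difference was at least 1 log2 unit for 605 of the called genes (3.43%), 315 higher and 290 lower. For 2356 called genes (13.3%) the arrays of both groups did not overlap, 1009 higher (5.72%) and 1347 lower (7.63%). With slide as a block 2889 genes were called. When arrays that lay close together were averaged before the fit, which left 3 sh-Control and 2 sh-SIRT1 RA values, 44 genes were called, 23 higher and 21 lower. All 44 were also called with the arrays taken singly. Of the 112 called genes named in the following, 11 were among them, namely Sirt1, Crabp2, Nap1l5, Olig3, Zadh2, Hoxb9, Fgfr1, Grb10, Herc6, Igsf23 and Adipoq. The other named genes were not called in that fit.

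The number of calls depended on which sh-Control RA array stood for the control. Against array 1 alone 1018 genes were higher and 970 lower, against array 2 alone 567 and 491, against array 3 alone 890 and 1062, and against array 4 alone 943 and 976. Such a fit takes the spread of the lone array to be that of the other groups. Only 217 genes (1.23%) were called in the same direction against every single array, 105 higher (0.595%) and 112 lower (0.635%). Of the 605 called genes with a difference of at least 1 log2 unit, 91 were among these 217. Leaving out 1 array also changed the number. It rose without sh-Control RA array 1 or 2 and changed little without sh-Control RA array 3 or 4. Without any of these fewer arrays had to be passed. It also rose without sh-SIRT1 RA array 1 and fell without sh-SIRT1 RA array 4. Why the number differed was not tested. With slide as a block it was 21. With the replicate number as a block, each sh-Control RA array is set against the same-numbered sh-SIRT1 RA array alone. The spread in such a fit comes from the vehicle arrays only, so that it cannot decide which differences hold.

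**Figure D1:**
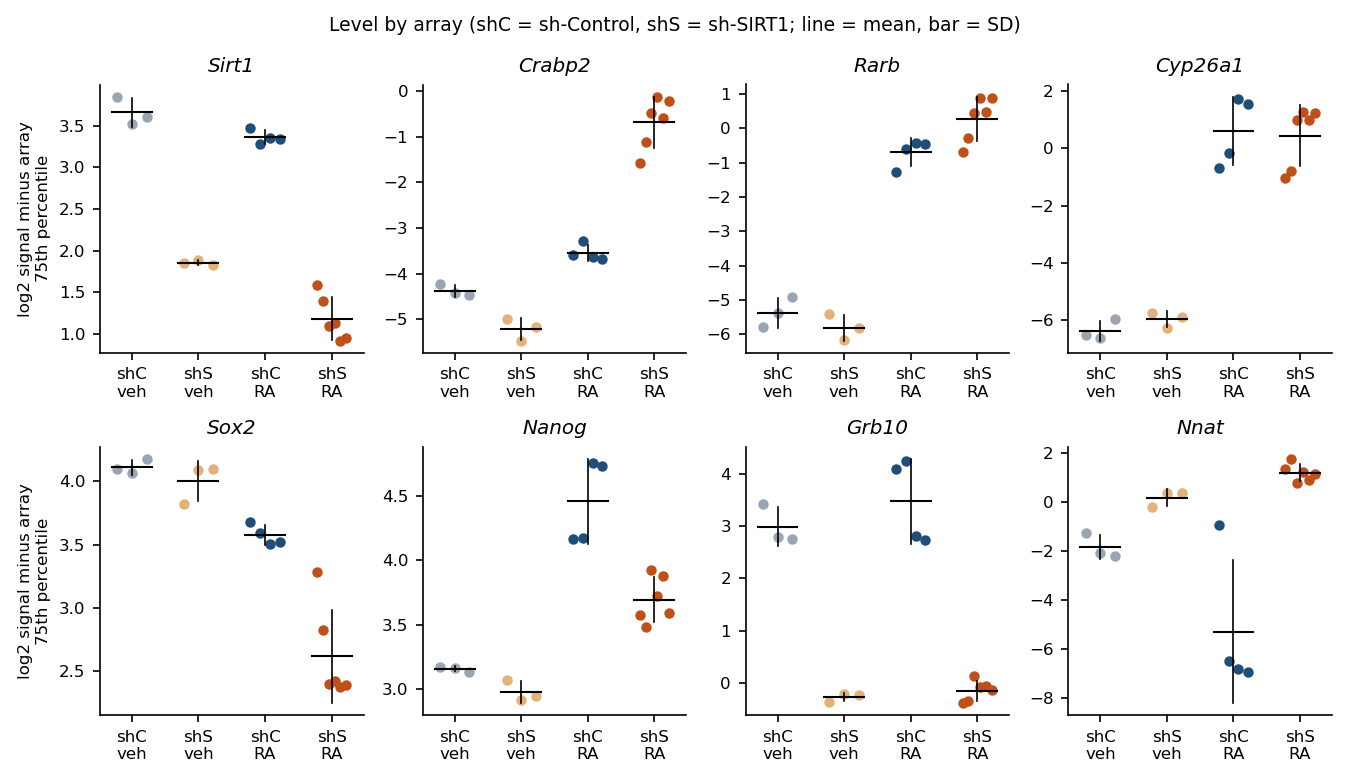
Levels of 8 genes on each of the 16 arrays, as log2 intensity minus the 75th percentile of the array (y axis), by line and treatment (x axis); points are arrays, horizontal lines are means and vertical bars are SDs. Sirt1 was low on all sh-SIRT1 arrays, Crabp2 lay between -1.57 and -0.13 on the sh-SIRT1 RA arrays and between -3.67 and -3.28 on the sh-Control RA arrays, and Cyp26a1 was split within both RA groups.

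Among the genes of retinoid metabolism and RA receptors, Crabp2 stood out and the list as a whole did not. Of 31 listed genes 27 were tested, of which 3 were higher and 3 lower (22.2% called, against 20.5% of all genes). The median difference was -0.21. Crabp2, the carrier that hands RA to its receptors, was at -3.60, -3.28, -3.64 and -3.67 on sh-Control RA arrays 1 to 4. On the sh-SIRT1 RA arrays it was at -1.57 on the lowest, -0.53 at the median and -0.13 on the highest. Every sh-SIRT1 RA array lay far above every sh-Control RA array, and arrays 1 and 2 were the lowest of the former. The difference was 2.86 ± 0.23 (adjusted p = 8.78e-06), which is 7.28-fold, and against the single sh-Control RA arrays it was 2.60 to 2.99. Its vehicle level was -4.37 ± 0.13 for sh-Control and -5.20 ± 0.24 for sh-SIRT1 (SD, n = 3 each). The Crabp2 difference between the lines was thus of the other sign in vehicle, and it was higher under RA by 3.70 ± 0.38 (limma adjusted p of the interaction = 0.000519). Of all genes 658 (3.73%) passed that test. The probe lies at chr3:88062561-88062620 on mm7.

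The classical RA response element, DR5, is a direct repeat of a half-site with 5 bases between its copies. The half-site was taken as AGGTCA or as one of its variants, which were GGGTCA and in addition AGTTCA and finally GGTTCA, and the repeat was searched on both strands of the 250 bases before the RefSeq start sites of build GRCm38.p6. It was present in 29 of 32851 promoters (0.0883%). Of the 57 retinoid and Hox genes tested, 37 had a promoter in the table and 2 of these held the element, Rarb and Cyp26a1. Both stretches are shown because they are the only ones among these genes, with the half-sites in capitals and in the direction of transcription; for Cyp26a1 the repeat reads on the opposite strand.
Rarb: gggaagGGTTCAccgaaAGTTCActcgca
Cyp26a1: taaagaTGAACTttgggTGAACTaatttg
The Rarb stretch is at chr14:16575507-16575535 on the minus strand, with the element 53 to 37 bases before the start, and the Cyp26a1 stretch is at chr19:37697770-37697798 on the plus strand, with the element 32 to 16 bases before the start. A match of letters is not evidence of receptor binding in these cells.

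Rarb encodes RA receptor beta. It was at -1.27, -0.60, -0.42 and -0.45 on the sh-Control RA arrays and at -0.69, 0.46 and 0.88 on the lowest, median and highest sh-SIRT1 RA arrays. The groups overlapped, because sh-SIRT1 RA array 1 lay below 3 sh-Control RA arrays. The difference of 0.97 ± 0.31 passed the threshold narrowly (adjusted p = 0.0398). It was lost on leaving out any sh-Control RA array (adjusted p = 0.104, 0.0602, 0.0601 and 0.0613 for arrays 1 to 4) or sh-SIRT1 RA array 3, 4, 5 or 6 (0.0722, 0.082, 0.0702 and 0.0827), with slide as a block (0.0529) and with the replicate number as a block (0.0508). A limma fit of the 10 RA arrays alone did not call Rarb (adjusted p = 0.0696). Neither did a fit without the filter on dim probes (0.0675). Cyp26a1 encodes the main RA-degrading hydroxylase. Its level was -0.67, -0.15, 1.72 and 1.54 on the sh-Control RA arrays and at -1.04, 0.99 and 1.27 on the lowest, median and highest sh-SIRT1 RA arrays. Both groups thus held low and high arrays. Its difference was -0.16 ± 0.55 (adjusted p = 0.87), and with the replicate number as a block it was -0.49 (adjusted p = 0.0275). Vehicle levels of Rarb were -5.37 ± 0.43 and -5.81 ± 0.38, and those of Cyp26a1 were -6.37 ± 0.35 and -5.97 ± 0.28, for sh-Control and sh-SIRT1 in this order (SD, n = 3 each).

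Of the remaining called retinoid genes, Dhrs3, which reduces retinal and so limits RA synthesis, was higher by 1.47 ± 0.42 (adjusted p = 0.0237). Its call was lost without sh-Control RA array 1 (1.38, adjusted p = 0.0512) or 2 (1.22, 0.0689) and without sh-SIRT1 RA array 4 (1.31, 0.0512) or 6 (1.34, 0.0513). The limma fit of the 10 RA arrays alone did not call it either (adjusted p = 0.0658). Aldh1a2, which makes RA from retinal, was at -0.12, -0.53, -0.74 and -0.83 on the sh-Control RA arrays and between -1.80 and -1.31 on the sh-SIRT1 RA arrays. Here all sh-SIRT1 RA arrays were the lower ones, with a difference of -0.96 ± 0.22 (adjusted p = 0.00691). Ncoa1, a coactivator of nuclear receptors, was lower (-0.62 ± 0.13, adjusted p = 0.00503), also in vehicle (-0.66, adjusted p = 0.026).

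Hox genes, the clustered homeobox genes that give cells their position along the body axis and are switched on by RA, were in large part higher in sh-SIRT1 cells. Of 39 listed genes 30 were tested, 20 of them were higher and none lower (66.7% called, against 20.5% of all genes). The median difference was 1.21. The list was also called higher in part against each sh-Control RA array alone, with 10, 5, 17 and 18 genes higher and 0 lower against arrays 1 to 4. The size depended on the array. The median Hox difference was 0.66 against array 1, 0.65 against array 2, 1.67 against array 3 and 1.77 against array 4. Within the 3 slides with both groups it was 1.79, 1.27 and 0.64. With the close arrays averaged, 1 Hox gene was called, although all 20 kept a positive difference.

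By cluster, 5 of 10 HoxA genes, 8 of 9 HoxB genes, 4 of 5 HoxC genes and 3 of 6 HoxD genes were higher, with median differences of 1.10, 1.56, 1.19 and 0.52. In HoxD 3 genes had a positive and 3 a negative difference, and its median lay between -0.29 and 0.95 over the alternatives in processing. In HoxA, Hoxa5 (2.34 ± 0.40), Hoxa10 (1.91 ± 0.39), Hoxa9 (1.72 ± 0.40), Hoxa4 (1.67 ± 0.39) and Hoxa7 (1.22 ± 0.24) passed the test. In HoxB the differences were 2.27 ± 0.36 for Hoxb5, 2.22 ± 0.40 for Hoxb6, 1.80 ± 0.32 for Hoxb3, 1.77 ± 0.48 for Hoxb1, 1.56 ± 0.33 for Hoxb2, 1.27 ± 0.27 for Hoxb7 and 0.94 ± 0.19 for Hoxb4. The call of Hoxb1 was lost without sh-Control RA array 4 (1.71, adjusted p = 0.0506) and in a limma fit of the 10 RA arrays alone (0.0549). A second probe gave 0.09 for Hoxb6 and 0.88 for Hoxb2.

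Hoxb9 differed on every array. It was at -0.68, -0.52, -0.48 and -0.58 on the sh-Control RA arrays and at 0.09, 0.60 and 0.89 on the lowest, median and highest sh-SIRT1 RA arrays, with a clear gap between the groups. The difference was 1.15 ± 0.13 (adjusted p = 9.96e-05), it held against every single sh-Control RA array (1.07 to 1.26), and it was already present in vehicle (0.81, adjusted p = 0.00824). Hoxc9 was less even. It was at -0.17 and 0.45 on sh-Control RA arrays 1 and 2, at -3.12 and -3.61 on arrays 3 and 4, and between 1.54 and 2.25 on the sh-SIRT1 RA arrays. The sh-Control RA arrays were split among themselves, and the difference of 3.45 ± 0.65 (adjusted p = 0.00229) did not hold against every one of them. Hoxc6 was higher by 2.87 ± 0.69 and was well above background on 2 sh-Control RA arrays. Hoxc10 (1.19 ± 0.31) was no longer called without sh-Control RA array 3 (1.09, adjusted p = 0.0528) or 4 (0.95, 0.0587). With normexp background correction the differences of Hoxc6 and Hoxc10 were 1.05 and 0.31.

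In HoxD, Hoxd4 was at -5.78, -6.71, -8.18 and -7.18 on the sh-Control RA arrays, of which only 1 was well above background, and between -4.79 and -4.44 on the sh-SIRT1 RA arrays. All sh-SIRT1 RA arrays were above all sh-Control RA arrays (adjusted p = 0.000258). Because 3 of the sh-Control RA arrays were not well above background, the size is uncertain, with a difference of 2.35 ± 0.31 as measured and 0.39 with normexp background correction. Hoxd9, measured above background on 2 sh-Control RA arrays, was higher by 0.63 and 0.65 against these 2 arrays (1.97 ± 0.47 against all 4, and 0.41 with normexp). Hoxd8 was higher by 1.11 ± 0.19, but by only 0.22 with normexp. Hoxd4, Hoxd9 and Hoxb9 were the 3 Hox genes that held against every sh-Control RA array. Of the Hox cofactors and Cdx genes 12 of 14 were tested, 6 were higher and none lower (median 0.79), among them Tshz1 (2.67 ± 0.37) and the homeodomain cofactors Meis2 (2.31 ± 0.45) and Meis1 (2.22 ± 0.44). Meis1 was as much higher in vehicle (2.19, adjusted p = 0.0259).

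**Figure D2:**
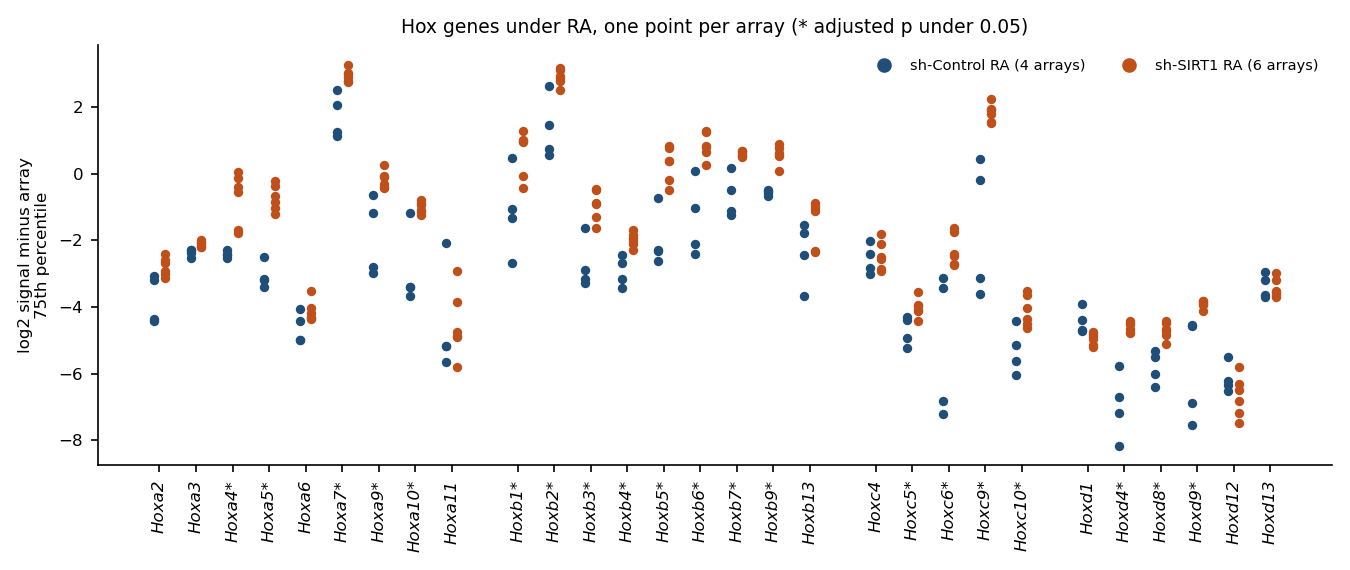
Levels of 29 of the 30 tested Hox genes (x axis, by cluster and paralogue number) on the 4 sh-Control RA and 6 sh-SIRT1 RA arrays, as log2 intensity minus the 75th percentile of the array (y axis); each point is an array and asterisks mark an adjusted p under 0.05, and levels of different probes cannot be set against each other. The 20 marked genes were all higher on the sh-SIRT1 arrays, and for Hoxc9 and Hoxd9 the sh-Control points fall into 2 separate pairs.

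The pluripotency network was lower in sh-SIRT1 cells under RA. Of 31 listed genes 28 were tested, 12 were lower and none higher (42.9% called, against 20.5% of all genes). The median difference was -0.43, with medians of -0.54, -0.36, -0.47 and -0.45 against sh-Control RA arrays 1 to 4. Over all alternatives in processing this median lay between -0.54 and -0.36. None of the 28 held against every single sh-Control RA array in the test. Sox2, a core factor, was at 3.68, 3.59, 3.51 and 3.52 on the sh-Control RA arrays and at 2.38, 2.41 and 3.28 on the lowest, median and highest sh-SIRT1 RA arrays. All sh-SIRT1 RA arrays were lower, sh-SIRT1 RA array 1 least so (-0.95 ± 0.16, adjusted p = 0.00103). Nanog was at 4.17, 4.17, 4.75 and 4.73 on the sh-Control RA arrays and between 3.48 and 3.92 on the sh-SIRT1 RA arrays, again without overlap (-0.76 ± 0.13, adjusted p = 0.00133). In vehicle neither gene passed the test (Sox2 -0.11, adjusted p = 0.792, and Nanog -0.18, adjusted p = 0.56). The difference of these differences did not pass the test for either gene (limma interaction adjusted p = 0.0746 and 0.131).

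The largest differences of the list were those of Tdgf1, the Nodal coreceptor Cripto (-1.06 ± 0.16), and Fbxo15, a target of the core factors (-1.01 ± 0.20). Rif1 (-0.70 ± 0.16), Nr0b1 (-0.69 ± 0.15) and Sall4 (-0.48 ± 0.08) were lower as well, each without overlap of the arrays. A second probe of Sall4 gave -0.20. Pou5f1, which encodes Oct4, was an exception among the core factors. It was at 3.01, 2.19, 2.04 and 2.73 on the sh-Control RA arrays and between 1.97 and 2.67 on the sh-SIRT1 RA arrays. The groups lay in the same range (0.01 ± 0.19, adjusted p = 0.975).

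Genes of extraembryonic endoderm, which embryonic stem cells also form under RA, had no common direction. Of the primitive endoderm factors 14 of 15 were tested, 1 was higher and 2 lower (21.4% called, near the 20.5% of all genes). Their median difference was -1.61 against sh-Control RA array 1 but 0.30, 0.51 and 0.63 against arrays 2, 3 and 4, so that the sign depended on a single array. Gata6, a defining factor of this lineage, was at 3.03 on sh-Control RA array 1, at 0.08, 0.40 and 0.49 on arrays 2 to 4, and between 0.22 and 0.94 on the sh-SIRT1 RA arrays. Only sh-Control RA array 1 stood apart (-0.51 ± 0.44, adjusted p = 0.457, and 0.17, adjusted p = 0.596, without that array), and the other probes of the gene gave -0.59 and 0.52. Foxa1 was lower (-1.09 ± 0.25) and Klf6 higher (0.66 ± 0.15). For the basement membrane genes of parietal endoderm, 2 of 14 tested (15 listed) were higher and none lower, with medians of -1.41, -0.01, 0.80 and 1.04 against the 4 arrays. Of the yolk sac genes 15 of 20 were tested, 1 was higher and 1 lower. The shares called were 14.3% for the basement membrane genes and 13.3% for the yolk sac genes, below that of all genes.

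Of the neuroectoderm genes 18 of 24 were tested, 6 were higher and 1 lower (median 0.18), so that 38.9% were called, against 20.5% of all genes. Nes, an intermediate filament gene of neural precursors, was at 0.69, 1.23, 0.38 and 0.35 on the sh-Control RA arrays and between 1.48 and 2.15 on the sh-SIRT1 RA arrays, all of which were the higher ones (1.25 ± 0.18, adjusted p = 0.000381). Sox1, an early neural factor, was higher by 1.59 ± 0.31, and Zic2 was lower (-1.29 ± 0.27). With normexp the Zic2 difference was -0.33. Sox1 lies on chromosome 8, whose genes are described further on. Of the streak and mesoderm genes 20 of 24 were tested, 5 were higher and 1 lower (median 0.13), so that 30.0% were called. Meox1, a factor of somite formation, was at -1.02, -1.25, -3.42 and -3.67 on the sh-Control RA arrays and at 0.70, 0.99 and 1.89 on the lowest, median and highest sh-SIRT1 RA arrays. All sh-SIRT1 RA arrays were above the sh-Control RA arrays, which again formed 2 pairs, and the difference of 3.52 ± 0.50 (adjusted p = 0.000384) held against every single array. The forkhead genes Foxc1 (2.05 ± 0.49) and Foxc2 (1.12 ± 0.14) were higher, and Foxc2, also on chromosome 8, held against every array.

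Of 20 trophoblast genes tested (22 listed), 5 were higher and 1 lower (30.0% called, against 20.5% of all genes). The X-linked homeobox gene Rhox5 was at 5.99, 7.38, 7.80 and 7.77 on the sh-Control RA arrays and between 2.40 and 3.74 on the sh-SIRT1 RA arrays, a wide gap (-3.97 ± 0.61, adjusted p = 0.000646). Gata2 was higher by 0.90 ± 0.18. Of the blood and endothelial genes 11 of 16 were tested, 3 were lower and none higher, with Sox18 the largest (-1.22 ± 0.26). Fibroblast markers, which would show feeder cells, gave 1 higher gene (Fbn1, a microfibril gene, 0.76 ± 0.11) and 1 lower gene of 17 tested (22 listed). Their median was 0.06, -0.79, 1.00 and 0.75 against sh-Control RA arrays 1 to 4. The shares called were 27.3% for the blood and endothelial genes and 11.8% for the fibroblast markers.

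**Figure D3:**
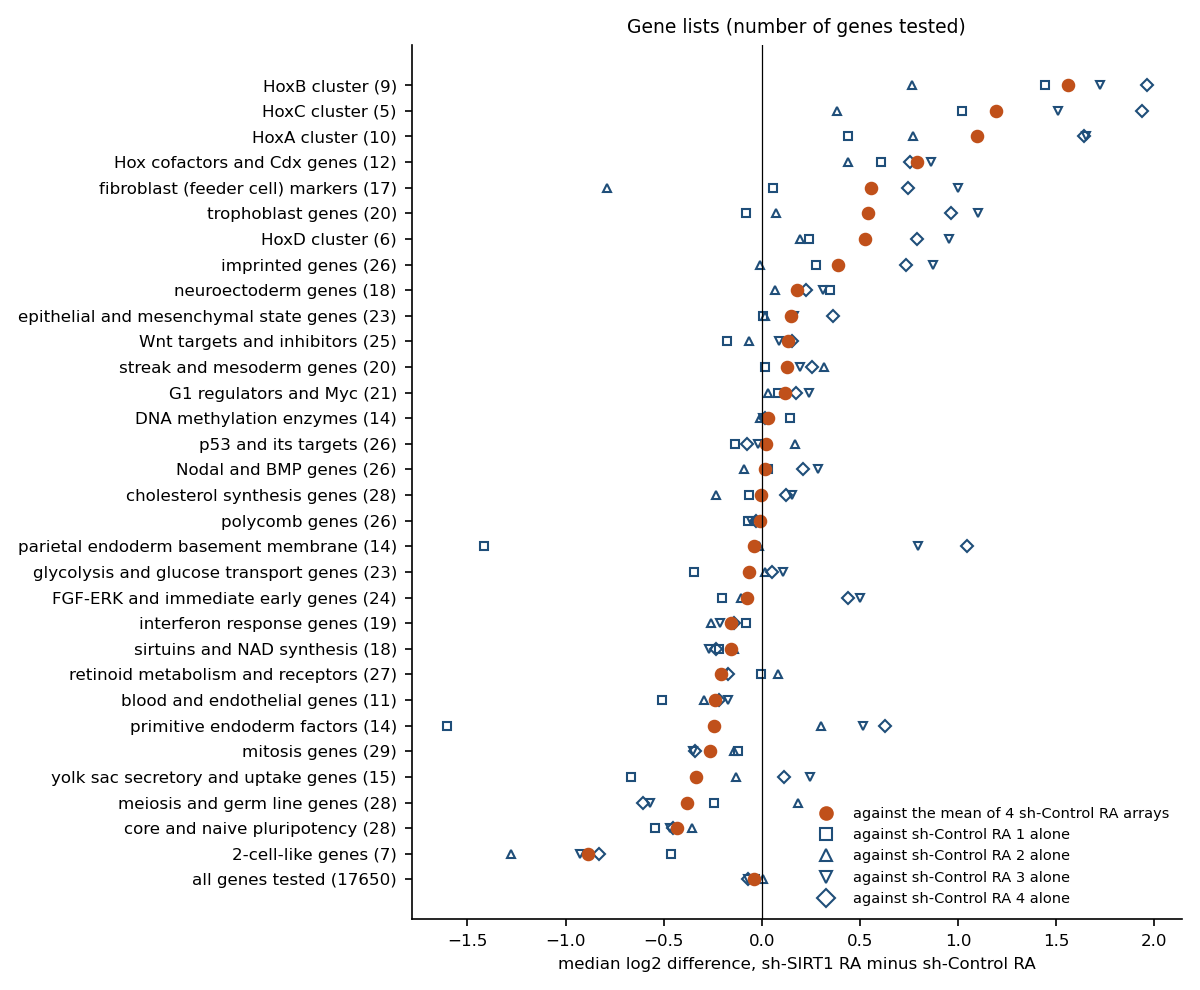
Median log2 difference (x axis) of the tested genes of each list and of all genes, against the mean of the sh-Control RA arrays (filled circles) and against each sh-Control RA array alone (open symbols); the number of genes is in parentheses on the y axis. The symbols of the HoxA, HoxB and HoxC lists all lie to the right of 0 and those of the pluripotency list all to the left, whereas the endoderm and fibroblast lists lie on both sides.

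Imprinted genes, which are expressed from a single parental allele, held some of the largest differences in both directions. Of 29 listed genes 26 were tested, 9 were higher and 3 lower (46.2% called, against 20.5% of all genes), with a median of 0.39. The median was 0.28, -0.01, 0.87 and 0.74 against sh-Control RA arrays 1 to 4. Nnat, which encodes the membrane protein neuronatin, was at -0.93, -6.51, -6.81 and -6.93 on the sh-Control RA arrays, of which only 1 was well above background, and at 0.80, 1.19 and 1.78 on the lowest, median and highest sh-SIRT1 RA arrays. No arrays overlapped (adjusted p = 0.000315). The difference was 2.14 against sh-Control RA array 1, the one that measured it. Against all 4 arrays it was 6.50 ± 0.89 as measured and 4.02 with normexp background correction, and its size is uncertain. Nap1l5 lay between -8.21 and -7.92 on the sh-Control RA arrays, none well above background, and between -4.79 and -3.57 on the sh-SIRT1 RA arrays. It was at least 3.55-fold higher in sh-SIRT1 cells (adjusted p = 1.82e-07). With normexp its difference was 0.84. For such a bound each array of the dim group was given the smallest signal that counted there as well above background, or the probe's own if larger. The bound is for the intensities as measured, and normexp gave smaller differences.

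Grb10, an adaptor that dampens insulin signalling, was at 4.09, 4.25, 2.81 and 2.73 on the sh-Control RA arrays and at -0.37, -0.10 and 0.14 on the lowest, median and highest sh-SIRT1 RA arrays. The gap between the groups was wide on every array (-3.61 ± 0.27, adjusted p = 4.62e-06, 12.2-fold lower). It was as wide in vehicle (-3.25, adjusted p = 0.000124), and its 2 other probes gave -3.25 and -3.97. Peg10 (2.10 ± 0.46, and 0.97 with normexp), Dlk1 (1.98 ± 0.42), Sgce (1.61 ± 0.22) and Meg3 (0.88 ± 0.17) were higher. Magel2 (-1.20 ± 0.21) and Snrpn (-0.71 ± 0.13) were lower. Among them, Nnat, Nap1l5 and Grb10 held against every single sh-Control RA array.

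Of the germ line and meiosis genes 28 of 30 were tested, of which 8 were lower and 2 higher (median -0.38), with medians of -0.24, 0.19, -0.57 and -0.61 against sh-Control RA arrays 1 to 4. The share called was 35.7%, against 20.5% of all genes. Fkbp6, a chaperone of the piRNA pathway and of meiosis, was at -2.58 on sh-Control RA array 1, between -1.19 and -0.95 on the other 3, and between -5.70 and -4.62 on the sh-SIRT1 RA arrays, 5 of which were well above background. All sh-SIRT1 RA arrays were lower (-3.62 ± 0.38, adjusted p = 5.36e-05), and the difference was of like size in vehicle (-3.40). Rnf17 (-1.35 ± 0.16), a component of germ cell granules, also held against every array. Smc1b (-1.92 ± 0.35), a meiotic cohesin, Dazl (-1.02 ± 0.14) and Kit (-0.81 ± 0.16) were lower, and Tdrd1 was higher (0.90 ± 0.14). A second probe of Tdrd1 gave 0.20.

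Mitosis genes differed little but in one direction. All 29 listed genes were tested and had a negative difference, and 12 were called lower and none higher (median -0.26). The share called was 41.4%, against 20.5% of all genes, of which 9644 of 17650 had a negative difference. The differences were small, with Nusap1 at -0.54 ± 0.09, Mad2l1 at -0.42 ± 0.08 and Kif11 at -0.40 ± 0.09; the largest was Pttg1, the securin gene, at -1.21 ± 0.30. The medians were -0.12, -0.14, -0.35 and -0.34 against sh-Control RA arrays 1 to 4, and none held against every single array. With slide as a block 7 were called. Of the 26 tested genes of p53 and its targets (27 listed), 3 were higher and 3 lower (23.1% called, near the share of all genes). Plk3 (1.04 ± 0.14) held against every array, the cell cycle inhibitor gene Cdkn1a was higher (0.71 ± 0.11), and Gadd45a (-0.95 ± 0.18) and Trp53 itself (-0.54 ± 0.11) were lower. A second probe of Trp53 gave -0.01, and with the mean of the probes it was not called (-0.28). Among the sirtuin and NAD genes 5 of 18 were lower and 1 higher (33.3% called). Besides Sirt1 the largest was Nadsyn1 (-0.47 ± 0.11).

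Signalling and chromatin lists were mixed. The shares called were 20.8% for FGF, 26.9% for Nodal and BMP, 28.0% for Wnt and 30.4% for epithelial and mesenchymal genes. Of all genes 20.5% were called. Of the FGF and immediate early genes 4 of 24 were higher and 1 lower, with Jun (1.37 ± 0.26) and the receptor gene Fgfr1 (1.25 ± 0.10) the largest. Fgfr1 was at -0.86, -0.42, -0.80 and -0.80 on the sh-Control RA arrays and between 0.44 and 0.70 on the sh-SIRT1 RA arrays, without overlap, and it held against every array. It lies on chromosome 8. Of the Nodal and BMP genes 4 of 26 were higher and 3 lower, among them Smad3 (0.56 ± 0.11, but 0.22 and not called as the mean of its probes) and the inhibitory Smad6 (-0.91 ± 0.19). Of the Wnt targets and inhibitors 2 of 25 were higher and 5 lower. The secreted Wnt inhibitor Wif1 was at -4.70, -3.59, -5.55 and -5.62 on the sh-Control RA arrays and not well above background on any sh-SIRT1 RA array, and was lower by a factor of at least 2.00 (adjusted p = 0.000155). With normexp its log2 difference was only -0.38. Tcf7 was lower (-0.49 ± 0.12). Of the epithelial and mesenchymal genes 5 of 23 were higher and 2 lower, among them N-cadherin, Cdh2 (1.67 ± 0.36), Zeb2 (1.38 ± 0.29) and desmoplakin, Dsp (1.24 ± 0.23).

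Of the polycomb genes 5 of 26 were higher and 4 lower, with Bmi1 (0.75 ± 0.14, with 0.07 from a second probe and 0.41, not called, as the mean of both) and Kdm2b (0.57 ± 0.13) higher and Jarid2 (-0.51 ± 0.10) lower. Of 14 DNA methylation enzymes 1 was higher and 3 lower. Both Tet1, which oxidises methylcytosine (-0.79 ± 0.13), and the methyltransferase gene Dnmt3b (-0.76 ± 0.14) were lower. Of 19 interferon response genes tested, 3 were lower and none higher. Parp14 was at -0.81, -0.82, -0.85 and -0.76 on the sh-Control RA arrays and between -2.04 and -1.30 on the sh-SIRT1 RA arrays, and it held against every array (-0.94 ± 0.13, adjusted p = 0.000375). No glycolysis gene was called by limma among 23 tested (3 had an unadjusted p under 0.05). Of 7 tested 2-cell-like genes (15 listed) 1 was called lower and all 7 had a negative difference, with a median of -0.89 that lay between -1.77 and -0.46 over the alternatives. Among the remaining lists 5 of 28 cholesterol synthesis genes were called (3 higher and 2 lower), and of 21 G1 regulators 3 were higher and 1 lower. Against 20.5% of all genes, 34.6% of the polycomb genes and 28.6% of the DNA methylation enzymes were called. Shares below that of all genes were found for interferon response (15.8%), 2-cell-like (14.3%) and cholesterol synthesis genes (17.9%). The share of the G1 regulators was below it as well.

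The differences that held against every single sh-Control RA array had a median of 0.79 for the 105 higher and -0.98 for the 112 lower genes. Besides those already given, the largest higher ones were the following. Nwd2 and the protease gene Tll1 were not well above background on any sh-Control RA array and were at least 3.63- and 3.66-fold higher (adjusted p = 3.01e-05 and 0.000131). With normexp their log2 differences were only 0.72 and 0.69. Olig3, a neural tube factor, was between -3.49 and -3.03 on the sh-Control RA arrays and between -1.27 and -0.39 on the sh-SIRT1 RA arrays (2.44 ± 0.18). Trib2 (2.29 ± 0.24), a pseudokinase gene, and Zadh2 (2.09 ± 0.19) were also higher in vehicle (1.31, adjusted p = 0.0166, and 1.25, adjusted p = 0.00621).

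The largest lower ones that held included Cpsf4l (-3.06 ± 0.35), the ribosomal protein paralogue Rpl39l (-2.73 ± 0.40), Igsf23 (-2.73 ± 0.26), Fam3b (-2.28 ± 0.26), the adiponectin gene Adipoq (-2.08 ± 0.24), the piRNA pathway gene Gtsf1 (-2.04 ± 0.25) and the adhesion gene Ceacam20 (-1.98 ± 0.22). Herc6 was not well above background on any sh-SIRT1 RA array and was lower by a factor of at least 3.20 (adjusted p = 9.59e-05). With normexp its log2 difference was only -0.52. A second probe of Igsf23 gave -0.31. Fam3b was well above background on 5 and Adipoq on 3 of the sh-SIRT1 RA arrays. With normexp their log2 differences were -0.93 and -0.59. Of the 217 genes, 71 of the higher and 50 of the lower ones were also called in the same direction in vehicle. Over all genes 779 (4.41%) were called higher and 757 (4.29%) lower in vehicle. The vehicle arrays share the estimate of the spread with the RA arrays.

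**Figure D4:**
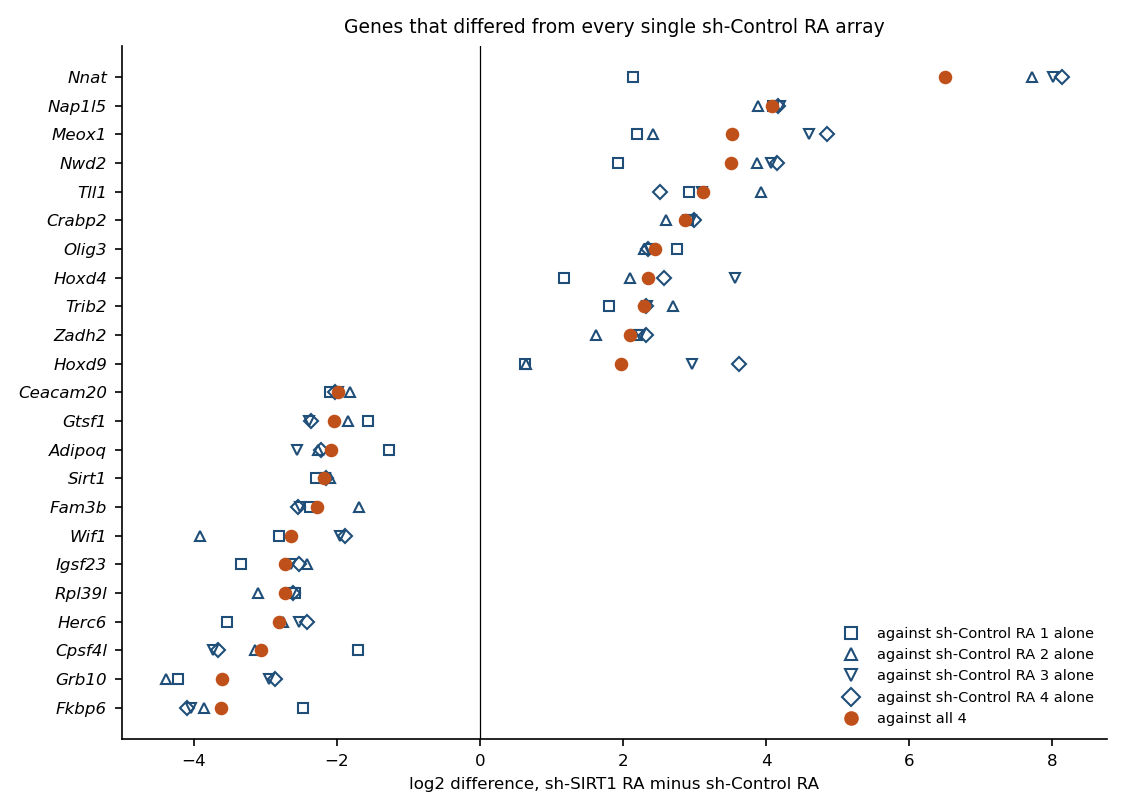
Log2 difference (x axis) of 23 genes with large differences, 11 higher and 12 lower, that differed from every single sh-Control RA array, against each array alone (open symbols) and against all 4 (filled circles). All symbols of a gene lie on the same side of 0, with a wide spread for Meox1 (2.20 to 4.85) and a narrow one for Sirt1 (-2.29 to -2.10). For Nnat, Nap1l5, Nwd2, Tll1, Hoxd4 and Hoxd9 some or all sh-Control RA arrays, and for Wif1, Herc6, Adipoq, Fkbp6 and Fam3b some or all sh-SIRT1 RA arrays, were not well above background, so that the sizes drawn for them are uncertain.

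Other large differences did not hold against every single array. Ddx3y (6.37 ± 1.20) and Eif2s3y (3.17 ± 0.71), both Y-linked, were high on sh-Control RA array 1 and on all sh-SIRT1 RA arrays. For Eif2s3y the difference against array 1 alone was -0.30. Igfbp5 (3.05 ± 0.69, with 0.41 from a second probe), Apol6 (2.84 ± 0.38), Tshz1 and Olfr373 (2.66 ± 0.59) were the other higher genes besides Hoxc9 and Hoxc6. Olfr373 was well above background on 1 sh-Control RA array, and with normexp its log2 difference was 0.60. On the lower side, besides Rhox5, were Htr5b, at least 2.42-fold lower (adjusted p = 0.00023), Neb, at least 2.83-fold (0.00462), Them5, at least 1.61-fold (0.000886), and Sytl3, at least 1.54-fold (0.000891). None of these 4 was well above background on a sh-SIRT1 RA array, and the last 3 were so on 3 sh-Control RA arrays. With normexp the log2 differences of Htr5b, Neb, Them5 and Sytl3 were only -0.48, -0.51, -0.30 and -0.33. Ptch1, the Hedgehog receptor (-2.28 ± 0.52), and 1700048B10Rik (-2.31 ± 0.33) were lower without overlap. They were well above background on 4 and 1 of the sh-SIRT1 RA arrays. With normexp their log2 differences were -0.78 and -0.64.

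Fmr1nb was lower with a wide error (-2.44 ± 0.77, adjusted p = 0.0373), and the sh-SIRT1 RA arrays spanned -2.40 to 1.38. Its call was lost without any sh-Control RA array (adjusted p = 0.0693, 0.0717, 0.0715 and 0.0686 for arrays 1 to 4), without sh-SIRT1 RA array 1, 2, 4 or 6 (0.0532, 0.0638, 0.0757 and 0.0768) and with slide as a block (0.0609). The limma fits of the 10 RA arrays alone (adjusted p = 0.0572) and without the filter on dim probes (0.0628) did not call it either.

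The genes that held were unevenly placed in the genome. Of the 105 higher ones 51 (48.6%) lie on chromosome 8, which holds 5.29% of the tested genes with a position, and none of the 112 lower ones does. On that chromosome 284 of 918 genes (30.9%) were called higher and 29 lower, and the median difference of all its genes was 0.25, against -0.08 to 0.01 on the other chromosomes. It was positive against each sh-Control RA array (0.39, 0.25, 0.23 and 0.21) and in vehicle (0.36). The held genes of chromosome 8 had a median difference of 0.74, and 10 of the 51 reached 1 log2 unit. Of the genes named here Tll1, Foxc2, Fgfr1, Sox1, Plat (1.32 ± 0.30) and Olfr373 lie there. Without chromosome 8, 54 higher genes held and 1246 genes were called higher and 2067 lower. A stretch of chromosome 12 from Coq6 to Alkbh1 (chr12:82370254-85691648 on mm7), singled out after its values were seen, had 56 genes tested, of which 30 were higher and none lower. Its median difference was 0.40 (0.50 in vehicle), against -0.09 for the rest of the chromosome. The part of these positional shifts in the differences of single genes was not tested.

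**Figure D5:**
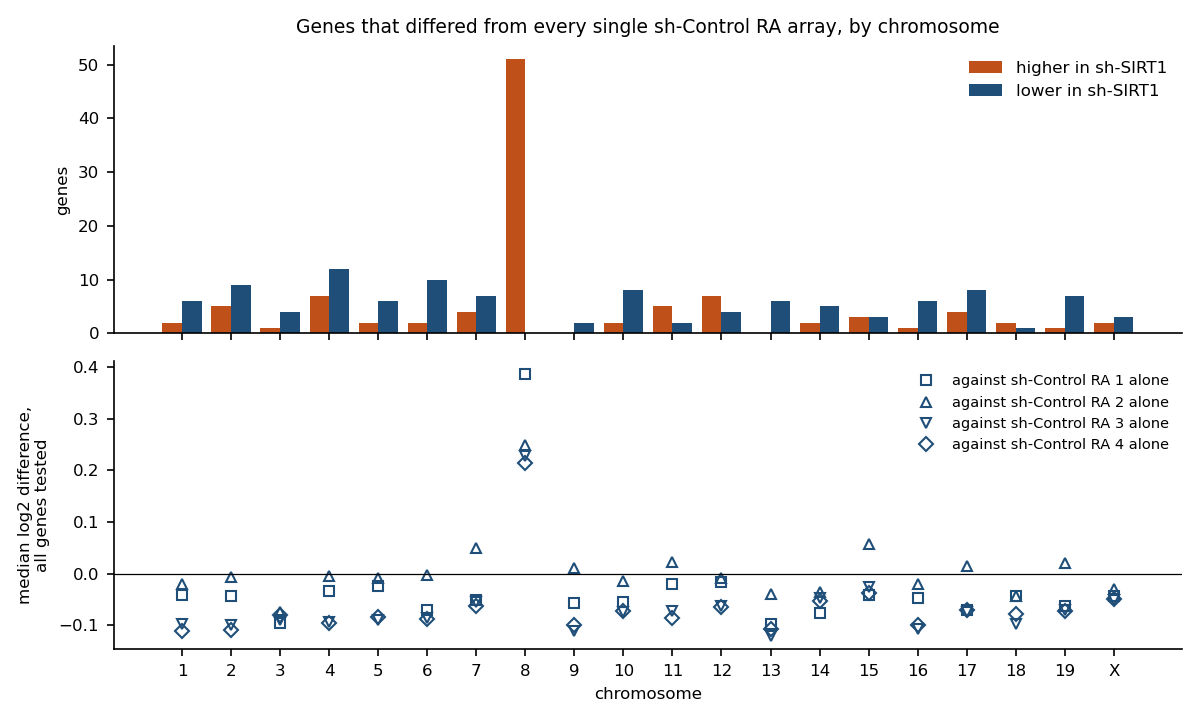
Number of genes that differed from every single sh-Control RA array, higher or lower in sh-SIRT1 cells (upper panel), and median log2 difference of all tested genes against each sh-Control RA array alone (lower panel), by chromosome (x axis). Chromosome 8 has 51 higher and no lower genes and medians of 0.21 to 0.39, whereas the medians of other chromosomes lie near 0.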

How the data were processed

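Per the file headers, the authors' deposited intensity values are 1-colour Cy3 signals from Agilent Feature Extraction 9.5.3.1 (9.5 per the submitters' processing notes) with spatial and multiplicative detrending and probe positions on mm7. The deposited matrix equalled them on all 45018 spots of each array. Control spots and spots flagged as outliers were left out, and log2 intensity minus the array's 75th percentile was used. A probe was kept (26375 of 41174) where every array of some group had it well above background, the brightest probe stood for a gene, and 14590 of 17650 genes had a RefSeq symbol. limma 3.58.1 in R 4.3.3 was fitted to all 16 arrays with a mean for each of the 4 groups (12 residual degrees of freedom, two-sided). It was fitted again with 1 sh-Control RA array at a time. The same fit was also run on simulated arrays with independent noise, which lack the close sets of arrays seen here. The number of arrays limits the precision. Slides were read from the number in the names of the scanner files, and 1 of the 4 held no sh-Control RA array. Arrays with the same replicate number deviated together (correlations of 0.43 to 0.54), but unequal numbers gave -0.62 to 0.52. This pairing comes from the data and the titles' numbers only. sh-Control RA arrays 1 and 2 deviated with sh-SIRT1 RA arrays 1 and 2 (0.32 to 0.54) and opposite to arrays 3 to 6 (-0.48 to -0.05). For sh-Control RA arrays 3 and 4 it was the reverse (-0.62 to -0.55, and 0.24 to 0.52). These sets make up unequal parts of the RA groups, and their part in the differences was not tested. Named genes were the 12 largest in each direction that held against every single array without overlap, the 8 largest in each direction that did not, Sirt1, Crabp2 and the largest members of gene lists; 2 genes that this rule names are not reported here. The members and lists were chosen with earlier results of these data known. Alternatives changed the scale, background, filter, probe rule, blocks and arrays.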

Additional observations from a re-analysis of the deposited data

Results flagged for a closer look

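Over 230 combinations of a named gene and an RA group, a single array lay far from the others of its group in 23 by Dixon's criterion. Its rate of about 1 in 20 groups is for independent values. Arrays that lay close together are not such values, so that the 23 cannot be set against this rate. Of the 23 flags, 11 fell on sh-Control RA array 1 and 5 on sh-Control RA array 2. Arrays 3 and 4 of that group lay close together, so that neither could easily be flagged. On sh-Control RA array 1 the high values were those of Nnat (-0.93), Nwd2 (-5.91), Ddx3y (0.23), Eif2s3y (1.98), Olfr373 (-5.07), Hoxa10 (-1.19) and Gata6 (3.03). The low values there were those of Fkbp6 (-2.58), Ptch1 (-3.87), Trp53 (1.65) and Smad6 (-0.40). On sh-Control RA array 2, Zadh2 (0.083), Rpl39l (4.84) and Fgfr1 (-0.42) were high, and Sytl3 (-6.64) and Jarid2 (3.76) were low. Among the sh-SIRT1 RA arrays, array 1 was low in Gata2 (0.10) and Cdkn1a (0.46), and array 2 was high in Apol6 (1.71) and low in Kit (0.56). Array 3 was high in Zic2 (-4.57), array 5 low in Sox1 (-3.06) and array 6 low in Pou5f1 (1.97).

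For 9 of 39 named genes the difference between the lines under RA differed from that in vehicle by limma's interaction term. The term was 4.39 for Meox1, 3.83 for Nwd2, 3.70 for Crabp2, 3.06 for Apol6, 2.96 for Tll1, 2.67 for Hoxd4, 2.51 for Olig3 and 1.83 for Nap1l5. As measured, it exceeded the difference under RA for Meox1, Nwd2, Crabp2, Apol6, Hoxd4 and Olig3. The estimate of their difference in vehicle was thus on the other side of 0. For Nwd2, Apol6, Hoxd4 and Olig3 the excess was smaller than the SE of the term (0.544, 0.615, 0.503 and 0.292). A reversal of sign in vehicle was thus not shown for these genes. For Wif1 the term was -2.30. For Nwd2, Tll1, Nap1l5, Hoxd4 and Wif1 at least 1 of the 4 groups had no array well above background, so that the sizes of their terms are uncertain. Of all 17650 genes 658 (3.73%) passed this test. The 39 genes were named for their difference under RA, a choice that favours a larger difference there than in vehicle.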

How the results depend on the processing

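With all arrays counted singly, 3626 genes were called. The other counts were 1988, 1058, 1952 and 1919 against sh-Control RA array 1, 2, 3 or 4 alone and 44 with the close arrays averaged, an alternative chosen after seeing the data. Of differences of at least 1 log2 unit (605), normexp with quantile scaling left 246 and averaging close arrays 30. Of genes that differed from every single array (217), the array median as scale gave 121, normexp with quantile scaling 358, no filter 113, slide as a block 21, averaging close arrays 10 and leaving out 1 array 139 to 539. The replicate block, which pairs arrays by number, gave 0 there by limma (981 unadjusted) and 5016 calls in all. It ended the call of Rarb and gave one for Cyp26a1, and it changed no other call among the named genes. Its fits against single sh-Control RA arrays took the spread from the vehicle arrays only, so the 0 does not show whether differences hold. Calls without overlap (2356) numbered 1058 against array 2 alone and 44 with close arrays averaged. The sign turned for Eif2s3y against array 1 alone (-0.30) and within slide 4 (-0.035). The difference of Pou5f1 turned against arrays 1 (-0.51) and 4 (-0.23), with arrays 3 and 4 averaged (-0.025), with close arrays averaged (-0.0026) and on leaving out 1 array (-0.14 to 0.18). For Cyp26a1 it turned with the slide block (0.10), against arrays 1 (1.12) and 2 (0.60), with arrays 3 and 4 averaged (0.18) and on leaving out 1 array (-0.59 to 0.21). For Gata6 it turned against arrays 2 (0.41) and 3 (0.089) and on leaving out 1 array (-0.82 to 0.17). The cause was not tested. Of 32 list medians 13 kept their sign in every alternative. Of 112 named called genes 11 kept their call in every alternative.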
